A study of Mus musculus with 8 samples.

Results

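The mu-class glutathione transferase genes Gstm1 to Gstm7 were described in bulk RNA-seq of MC38 tumors, 7 of the 24421 genes counted. They were chosen because Gstm3 had lower counts in photoconverted than in control tumors of these same libraries, and its 6 paralogs were added by family name to ask whether they shared that drop. Gstm3 was thus selected on the measured difference between the groups, and its own difference is given as a description with no test. All 7 genes had counts, and 5 of them (Gstm1, Gstm2, Gstm4, Gstm5 and Gstm7) passed the filter on low counts and were tested.

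MC38 cells derive from a murine adenocarcinoma of the colon. Kaede, a photoconvertible fluorescent protein, emits green light until violet light turns it red. All 8 tumors grew from 250000 injected MC38 cells in female B6 Kaede mice that were 9 weeks old at injection, so control mice carried the Kaede transgene as well. On day 10, at a diameter of about 5 mm, 4 tumors were photoconverted with 405-nm light for 3 min and 4 were left unexposed. All were collected 5 h later and stored in RNAlater, and whole-tumor RNA was sequenced, so the lymphoid, myeloid, stromal and malignant cells were measured together.

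Glutathione transferases are enzymes that join the tripeptide glutathione to electrophilic compounds, such as carcinogens, drugs and products of lipid peroxidation. The conjugates can then be exported and broken down. The mu class is a set of close relatives encoded side by side, which work as dimers and can pair with one another. Several are induced through the transcription factor NRF2, which also drives glutathione synthesis and other detoxifying enzymes.

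The 7 genes lie in a cluster of 149074 bp at chr3:107895821-108044894 (GRCm38, which is mm10), each with 8 exons in its reference transcript. Gstm5, at one end, is on the plus strand, and the other 6 are on the minus strand. From the low to the high coordinate the order was Gstm5, Gstm7, Gstm6, Gstm3, Gstm2, Gstm1 and Gstm4. Gstm3 itself spans chr3:107963696-107969283, between Gstm6 and Gstm2. Its coding sequence of 657 bases was 89.5% identical to that of Gstm1, 84.8% to Gstm2, 83.9% to Gstm6, 82.0% to Gstm7, 79.1% to Gstm4 and 69.7% to Gstm5. The sequences are shown because a read can be assigned to Gstm3 without doubt only where it covers a base that differs from its relatives. The first set below is the stretch of 60 coding bases in which the family was most alike, bases 209 to 268 from the start codon (218 to 277 in the longer Gstm5). It is printed 5′ to 3′ from the GENCODE transcripts, with every base that differs from Gstm3 in capitals:
Gstm3: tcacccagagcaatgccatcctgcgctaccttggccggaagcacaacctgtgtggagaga
Gstm1: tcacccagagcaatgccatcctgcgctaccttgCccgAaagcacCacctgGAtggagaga
Gstm2: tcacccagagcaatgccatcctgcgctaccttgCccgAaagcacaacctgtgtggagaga
Gstm4: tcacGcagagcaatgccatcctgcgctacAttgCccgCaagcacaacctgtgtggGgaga
Gstm5: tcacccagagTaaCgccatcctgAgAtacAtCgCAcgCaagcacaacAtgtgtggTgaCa
Gstm6: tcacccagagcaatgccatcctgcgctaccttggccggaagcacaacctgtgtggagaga
Gstm7: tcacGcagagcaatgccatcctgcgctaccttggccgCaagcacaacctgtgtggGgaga
In this stretch Gstm3 and Gstm6 did not differ at any base, and Gstm2 differed from Gstm3 at 2. The least alike stretch of the same length, bases 332 to 391 (341 to 400 in Gstm5), shows where reads can be told apart, again with differences from Gstm3 in capitals:
Gstm3: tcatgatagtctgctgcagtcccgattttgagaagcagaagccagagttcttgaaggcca
Gstm1: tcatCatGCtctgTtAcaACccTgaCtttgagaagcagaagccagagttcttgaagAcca
Gstm2: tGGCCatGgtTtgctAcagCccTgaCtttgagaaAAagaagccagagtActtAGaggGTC
Gstm4: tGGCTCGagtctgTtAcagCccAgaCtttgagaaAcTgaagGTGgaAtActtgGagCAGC
Gstm5: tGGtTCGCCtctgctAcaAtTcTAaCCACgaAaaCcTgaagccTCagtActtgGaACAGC
Gstm6: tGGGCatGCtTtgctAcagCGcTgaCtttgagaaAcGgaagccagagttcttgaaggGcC
Gstm7: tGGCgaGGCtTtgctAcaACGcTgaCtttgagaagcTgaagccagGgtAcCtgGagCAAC
Here Gstm1 differed from Gstm3 at 10 bases, Gstm6 at 16 and Gstm5 at 28. Over whole transcripts, 28.8% of the 50-base windows of Gstm3 also occurred in a transcript of another gene, namely Gstm1, Gstm6, Gstm2-ps1 or Gm8834. The share was 13.8% for windows of 100 bases and 3.44% for windows of 150 bases, the length of one sequencing read. The corresponding share of 50-base windows was 23.1% for Gstm1, 9.36% for Gstm2 and 11.8% for Gstm6, and 0% for Gstm4 and Gstm7. Counts of Gstm3, Gstm1, Gstm2 and Gstm6 are therefore uncertain to the extent that reads from shared stretches were dropped or assigned to a relative. For Gstm5, 14.4% of the windows were shared with 4933431E20Rik, an antisense gene that overlaps its start and had 224 counts over all tumors. Reads of this pair can be told apart only if the counting used strand.

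Total counts ranged from 12576615 to 35844417 per tumor. Rn45s, the 45S precursor of ribosomal RNA, took 2.70% to 9.65% of the counts in 5 tumors. Its share was far higher in photoconverted tumor 4 (21.9%), control tumor 2 (35.7%) and control tumor 4 (23.2%), which also had the lowest totals. These 3 libraries stood apart from the others, and the fold changes of the Gstm genes are given with and without them. Among lists of marker genes, the summed level (in CPM, normalized for library size) of 10 skeletal muscle genes ranged from 174 to 1426 CPM when photoconverted and from 178 to 443 CPM in controls, and all 10 had a positive log2 fold change. That of 10 keratinocyte and skin genes ranged from 17.1 to 46.3 CPM and from 11.9 to 21.9 CPM, and that of 10 adipocyte genes from 81.6 to 183 CPM and from 88.5 to 130 CPM. Of the tested markers, 5 of 5 skin genes and 9 of 9 adipocyte genes had a positive log2 fold change, and none of the 3 lists had a gene past the threshold in edgeR. Over all genes tested, 6768 of 14468 had a positive log2 fold change. Of the defining skin markers Krt5, Krt15, Krt1, Lor and Krtdap were at 0 in at least 1 tumor. The summed level of 10 fibroblast genes was 12607 CPM in control tumor 2, above the 3453 to 4982 CPM of the other 7 tumors. The part of these tissues in the Gstm values was not tested. Epithelial markers of the colon were scarce in every tumor (4.85 to 7.64 CPM summed over 9 genes, with Krt18, Krt19 and Cldn7 at 0 in at least 1 tumor). In whole tumors, fewer cells of a type cannot be told apart from less RNA per cell.

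Gstm3, which in mouse liver is known as an enzyme induced by electrophiles, was nearly absent from photoconverted tumors. Photoconverted tumors 1 to 4 had 1, 2, 2 and 3 raw counts of it, whereas control tumors 1 to 4 had 36, 2, 47 and 21. Control tumor 2, the library with the highest Rn45s share and the lowest total, thus had a Gstm3 count within the range of the photoconverted tumors. The deposited normalized counts, which are raw counts divided by a size factor per library, were 0.564, 1.43, 1.78 and 4.66 in photoconverted tumors and 23.3, 4.81, 37.8 and 29.0 in control tumors. On this scale the groups did not overlap, but the gap between photoconverted tumor 4 (4.66) and control tumor 2 (4.81) was one between 3 reads and 2 reads. Of the 19823 genes in the normalized table, 0.575% had every photoconverted tumor below every control tumor, and since Gstm3 was chosen by this contrast nothing is read from its place among them. As raw CPM, which is the count scaled by the library's total count alone, the groups overlapped, since photoconverted tumor 4 had 0.179 and control tumor 2 had 0.159.

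The normalized count of Gstm3 averaged 2.11 ± 1.78 over photoconverted and 23.7 ± 14.0 over control tumors (SD, n = 4 each), a log2 ratio of -3.49, or 11.3-fold. Within each of the 4 pairs that share a replicate number the control tumor had the higher value. Any pairing would give this, since the groups did not overlap on this scale. Photoconverted tumor 2 and control tumor 2 both had 2 raw counts. Summed over tumors, 8 of 105416415 counts fell on Gstm3 in the photoconverted group and 106 of 85570113 in the control group. These sums correspond to 0.0759 raw CPM (exact 95% Poisson interval 0.0328 to 0.150) and 1.24 raw CPM (1.01 to 1.50), a ratio of control to photoconverted of 16.3 (7.99 to 38.8). Such intervals cover counting error only, not the spread between tumors. Restricted to the 5 tumors with less than 10% of counts on Rn45s, the sums were 5 and 83 counts and the ratio was 27.5 (11.3 to 87.0). In the other 3 tumors the sums were 3 and 23 counts and the ratio was 4.00 (1.21 to 20.8). Of those 23 control counts 21 came from control tumor 4. Without control tumor 2 the ratio was 18.8, and without photoconverted tumor 4 it was 22.0.

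**Figure D1:**
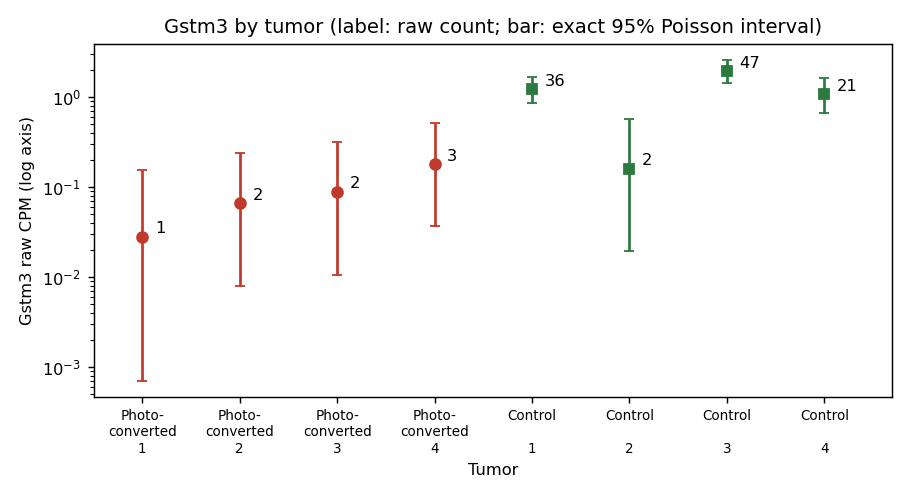
Raw CPM of Gstm3, the counts scaled by total counts (log axis), in each of the 8 tumors, with exact 95% Poisson intervals as bars and the raw count beside each point. Photoconverted tumors had 1 to 3 reads each, control tumors 1, 3 and 4 had 21 to 47, and control tumor 2, with 2 reads, lay among the photoconverted tumors.

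The plot of Gstm3 by tumor shows that the intervals of control tumors 1, 3 and 4 lay above those of all 4 photoconverted tumors. The interval of control tumor 2 overlapped those of all photoconverted tumors.

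The paralogs did not show a drop of this size. Gstm1, an abundant mu-class enzyme of mouse liver and the closest relative of Gstm3 in coding sequence, had the highest counts of the family. Its raw counts were 889, 653, 584 and 241 in photoconverted tumors and 1377, 160, 658 and 266 in control tumors. The normalized counts were 501.5, 467.0, 520.5 and 374.3 in photoconverted tumors and 891.0, 385.1, 529.6 and 367.5 in control tumors. Control tumor 1 was the highest of all 8 tumors, and the groups overlapped. The means were 466 ± 64.9 and 543 ± 243 (SD, n = 4 each), with a log2 fold change of -0.23 (95% interval -0.85 to 0.40, adjusted p = 0.999 in edgeR's quasi-likelihood test).

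Gstm2, an enzyme of the same fold whose human counterpart is prominent in muscle, had normalized counts of 287, 226, 314 and 104 in photoconverted tumors and 337, 152, 255 and 158 in control tumors. Photoconverted tumor 4 was the lowest of all tumors, and the groups overlapped over most of their range. The log2 fold change was 0.04 (95% interval -0.79 to 0.87, adjusted p = 0.999 in edgeR). Its sign turned in the 5 tumors with a low Rn45s share, where it was -0.10.

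Gstm5, the most divergent member and in mouse an enzyme of brain and testis, had normalized counts of 66.6, 70.1, 106 and 62.1 in photoconverted tumors and 72.5, 52.9, 80.5 and 60.8 in control tumors. Photoconverted tumor 3 was the highest and control tumor 2 the lowest. The group means of 76.2 ± 20.2 and 66.7 ± 12.2 (SD, n = 4 each) differed by 0.18 on the log2 scale of the fit (95% interval -0.37 to 0.73, adjusted p = 0.999 in edgeR).

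Gstm4, Gstm6 and Gstm7 were also scarce, so their raw counts are given first. Gstm4, at the high-coordinate end of the cluster, had 15, 26, 23 and 14 raw counts in photoconverted tumors and 26, 7, 17 and 12 in control tumors. Its normalized count averaged 17.3 ± 6.05 when photoconverted and 16.0 ± 1.54 in controls (SD, n = 4 each). The lowest value, 8.46, was that of photoconverted tumor 1, and the other photoconverted tumors were above every control tumor. The log2 fold change of Gstm4 was 0.09 (95% interval -0.69 to 0.87, adjusted p = 0.999 in edgeR).

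Gstm7, the neighbor of Gstm5 in the cluster, had 24, 30, 21 and 4 raw counts in photoconverted tumors and 35, 6, 26 and 6 in control tumors. The group means were 15.0 ± 6.70 normalized counts for photoconverted and 16.6 ± 6.56 for control tumors (SD, n = 4 each). The lowest values were those of photoconverted tumor 4 (6.21) and control tumor 4 (8.29). The groups overlapped, and the log2 fold change was -0.16 (95% interval -1.12 to 0.81, adjusted p = 0.999 in edgeR). Gstm6, which lies next to Gstm3 and shares with it the longest identical coding run of the family (125 bases), had 13, 11, 7 and 3 raw counts in photoconverted tumors and 7, 2, 12 and 3 in control tumors. Like Gstm3 it did not pass the filter on low counts. In normalized counts the photoconverted mean was 6.52 ± 1.42 and the control mean 5.79 ± 2.60 (SD, n = 4 each). In a fit without the filter its log2 fold change was 0.16 (95% interval -0.85 to 1.17 from edgeR).

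**Figure D2:**
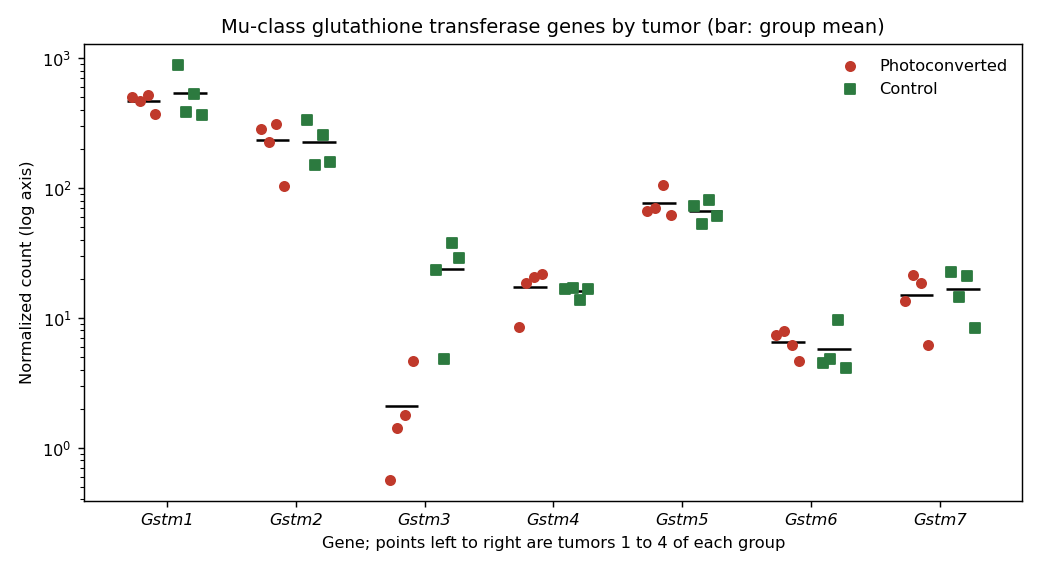
Normalized counts (log axis) of the 7 Gstm genes in 4 photoconverted and 4 control tumors, 1 point per tumor, with bars at the group means. The groups overlap for 6 genes, whereas all photoconverted values of Gstm3 lie below the control values, with photoconverted tumor 4 and control tumor 2 close together at 4.66 and 4.81.

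**Figure D3:**
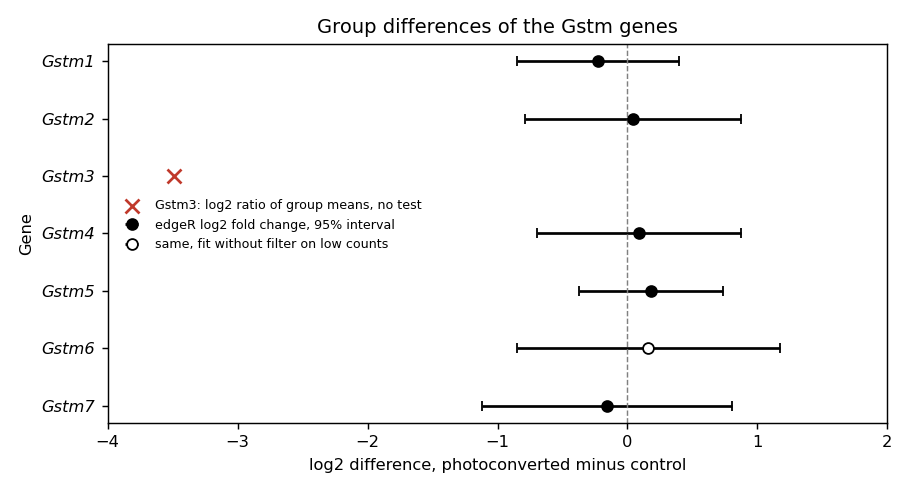
The log2 difference between photoconverted and control tumors for each Gstm gene, as edgeR log2 fold changes with 95% intervals for the paralogs (open point: fit without the filter) and as the log2 ratio of group means, without an interval, for Gstm3. The lowest bound of any paralog is -1.12, for Gstm7, and the value of Gstm3 is -3.49.

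Among the 5 tested paralogs, 0 passed the threshold of an adjusted p under 0.05, as did 0% of the 14468 genes tested, and 0 had an unadjusted p under 0.05, against 2.23% of all genes tested (322 genes). None of the 5 had groups without overlap in CPM, against 1.33% of all genes tested. The intervals give the range of differences that the tumors allow. The plot of log2 differences shows that the interval of every paralog, Gstm6 included, covered 0 and reached no lower than -1.12, so that a drop of the size seen for Gstm3 lay outside each of them. Smaller drops did not, since the lower bounds ran from -0.37 for Gstm5 to -1.12 for Gstm7. The p-values set each difference against the spread between these tumors as edgeR estimates it. Gstm1 came nearest to a lower level in photoconverted tumors when the fit was limited to the 5 tumors below 10% Rn45s. There its log2 fold change was -0.52, with an unadjusted p of 0.0366 and an adjusted p of 0.448 in edgeR. In that fit 0 of 6 paralogs tested passed the threshold, against 0.275% of all genes tested, and 1 of 6, Gstm1, had an unadjusted p under 0.05, against 10.5% of all genes tested. The log2 fold changes of the other paralogs in these 5 tumors were -0.10 for Gstm2, 0.02 for Gstm4, 0.08 for Gstm5, 0.05 for Gstm6 and -0.29 for Gstm7. Over all 8 tumors, 0 of the 5 tested paralogs had the same direction in all 4 same-numbered pairs, which 14.4% of all genes tested had.

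The sum of the 6 paralogs was 814 ± 176 normalized counts in photoconverted and 874 ± 342 in control tumors (SD, n = 4 each), a log2 ratio of -0.10. Gstm1 and Gstm2 together held 81.5% to 89.8% of the family's counts in every tumor, so the family total hardly depended on Gstm3. Gstm3 took 0.0637%, 0.176%, 0.181% and 0.806% of the family's counts in photoconverted tumors and 1.70%, 0.763%, 3.99% and 4.51% in control tumors. This share, which does not depend on library scaling, was again at the photoconverted level in control tumor 2. There the exact 95% binomial interval was 0.0926% to 2.73% of 262 family counts, and in photoconverted tumor 4 it was 0.167% to 2.34% of 372, so the intervals of these shares overlapped.

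Levels of different genes were compared per kilobase of transcript. The means given are of CPM per kilobase over the 8 tumors, whereas the order and its tests used log2 levels. Gstm1 was highest at 17.3 ± 5.80, followed by Gstm2 at 9.52 ± 3.50 and Gstm5 at 3.34 ± 0.758 (SD, n = 8). Gstm1 exceeded Gstm2, Gstm2 exceeded Gstm5 and Gstm5 exceeded Gstm7 in 8 of 8 tumors each (two-sided exact permutation test by sign flips, p = 0.0078125, which is the lower limit for 8 tumors, adjusted p = 0.0156 over the 6 neighboring pairs). The scarce genes followed, with Gstm7 at 0.507 ± 0.199, Gstm4 at 0.431 ± 0.107 and Gstm6 at 0.236 ± 0.0757. Gstm7 and Gstm4 did not differ beyond their spread (higher in 6 of 8 tumors, exact permutation test adjusted p = 0.666). Gstm4 was above Gstm6 in 6 of 8 tumors (exact permutation test adjusted p = 0.0469), but of the fits with a tumor left out this pair passed the threshold only in that without control tumor 3. Without photoconverted tumor 1, 2 or 3, Gstm3 came between them. Over all 8 tumors Gstm3, the last in the order, was below Gstm6 in 5 of 8 (exact permutation test adjusted p = 0.797), but its place depended on the group. In control tumors its level of 0.800 ± 0.470 CPM per kilobase was above the mean levels of Gstm7 (0.532), Gstm4 (0.414) and Gstm6 (0.222), and in photoconverted tumors its level of 0.0709 ± 0.0595 was below all of them.

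The 3 libraries rich in Rn45s were low for several members. In log2 CPM all 3 lay below the other 5 tumors for Gstm1, Gstm2 and Gstm5, 3 of the 5 paralogs tested, a pattern that 21.0% of all genes tested had. This comparison was chosen after the values were seen, and those libraries include 1 photoconverted and 2 control tumors. Within the 5 tumors with a low Rn45s share, the mean normalized count of Gstm1 was 496 in photoconverted and 710 in control tumors, that of Gstm2 was 276 and 296, and that of Gstm5 was 80.9 and 76.5. For Gstm4 the 3 libraries ran from 16.6 to 21.7 normalized counts and the other 5 tumors from 8.46 to 20.5, so the ranges overlapped.

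**Figure D4:**
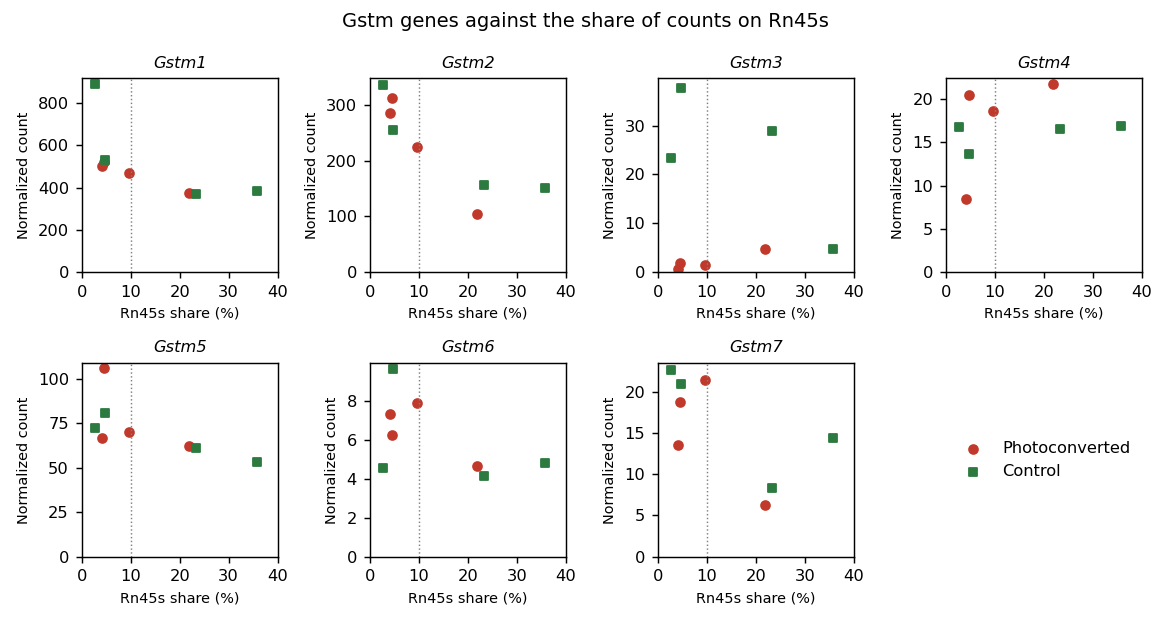
Normalized counts of each Gstm gene (vertical axes starting at 0) against the share of a library's counts on Rn45s in percent, 1 point per tumor, with a dotted line at 10%. The 3 libraries to the right of the line are the lowest for Gstm1, Gstm2 and Gstm5, whereas Gstm3 separates the groups on the left of the line and has control values of 4.81 and 29.0 on the right.

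The plots against the Rn45s share show that among libraries over 10% Gstm3 still ran from 4.66 to 29.0 normalized counts, while Gstm1 kept within 367.5 to 385.1. Across the 8 tumors the correlation of Gstm3 with its tested paralogs was weak, with Pearson's r between -0.09 (Gstm5) and 0.21 (Gstm1). Gstm1 and Gstm2 varied together (r = 0.81), as did Gstm2 and Gstm7 (r = 0.83). These are descriptions over 8 tumors that share library depth and the Rn45s share. Gstm3 had at most 3 raw counts in each photoconverted tumor and in control tumor 2. Its correlations therefore rest mostly on control tumors 1, 3 and 4, and they include the contrast by which Gstm3 was chosen. The tested genes most like Gstm3 were Rasgef1a (r = 0.93), Zfp93 (r = 0.91), Chfr, Mta3 and Umad1, and only 2 genes had an r over 0.9. Those most like Gstm1 were Kdelc2 (r = 0.98), Ephx1, a microsomal epoxide hydrolase (r = 0.97), Ogt, Zfp329 and Anp32a. For Gstm2, which had 499 genes with an r over 0.9, they were Papd4, Arhgap15, Fam120b, 1700094D03Rik and I830077J02Rik. Gstm5 was most like Bin3, Tmem106a, Ephx3, Tmod1 and Trex1, Gstm7 most like Pggt1b, Klre1, Rtn4rl1, Stk26 and Amy1, and Gstm4 most like Rhbdl3, Grid2ip, Sgk2 and Magea8.

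The genes that flank the cluster were examined to see whether the region differed as a whole. On the low-coordinate side the nearest tested gene was Csf1, the growth factor of macrophages, 135352 bp from the cluster at chr3:107741048-107760469. Photoconverted tumors had 133, 136, 176 and 129 CPM of Csf1, and control tumors had 99.4, 108, 87.2 and 124 CPM. Each photoconverted tumor was above each control tumor, and the log2 fold change was 0.45 (95% interval 0.12 to 0.79, unadjusted p = 0.0141, adjusted p = 0.999 in edgeR). Farther out on that side, Ahcyl1 had a log2 fold change of 0.13. On the other side were Ampd2 (0.05), which encodes an AMP deaminase and starts 29168 bp away, and the G protein genes Gnat2 (-0.34) and Gnai3 (0.16), each with overlapping groups and an adjusted p of 0.999 in edgeR. None of these neighbors passed the threshold. None had a log2 fold change as low as the log2 ratio of Gstm3, but neither did any gene tested, the lowest being -2.61.

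Promoters were searched for the core of the antioxidant response element bound by NRF2, TGACNNNGC, on both strands from 250 bases before to 50 bases after each RefSeq start (GRCm38.p6). It was found in 2 of the 12 windows of the family, that of Gstm5 and 1 of Gstm7, and in 12.4% of all 32851 windows. The window of Gstm3 held no match, which says only that these letters do not occur there.

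Glutathione metabolism beyond the mu class was read from 6 lists, 83 genes in all, of which 78 were tested. Of these, 0 passed the threshold in edgeR, 33 had a positive and 45 a negative log2 fold change, and the median was -0.02, against -0.01 over all genes tested. Over all 14468 genes tested, 6768 log2 fold changes were positive and 7700 negative. With the replicate number as a block, 0 of the 78 passed the threshold of edgeR, while the unadjusted p was under 0.05 for 4, against 6.01% of all genes tested. In the 5 tumors below 10% Rn45s, 0 of 78 passed in edgeR, against 0.275% of all genes tested. In that fit 9 of 78 had an unadjusted p under 0.05, against 10.5% of all genes tested. In 10 of the 78 the photoconverted tumor differed in the same direction in all 4 pairs, lower for 5 genes and higher for 5, which is a share near the background of 14.4%. Of the genes named below, these were Gstt3, Anpep, Gpx1 and Keap1, lower in 4 of 4 pairs, and Gstk1 and Glrx, higher in 4 of 4. Of the cytosolic transferases of other classes (alpha, pi, sigma, theta, omega and zeta), 2 of 13 had a positive log2 fold change, with a median of -0.20. The smallest p was that of Gsta1, an alpha-class enzyme, which averaged 13.2 ± 2.40 CPM over photoconverted and 18.9 ± 3.69 CPM over control tumors (SD, n = 4 each). The log2 fold change was -0.52 (95% interval -0.96 to -0.08, unadjusted p = 0.0254, adjusted p = 0.999 in edgeR), and the groups overlapped. The theta-class Gstt3 had a log2 fold change of -0.50 and the alpha-class Gsta2 one of 0.30, both with an adjusted p of 0.999 in edgeR. Reads shared among alpha-class genes were not examined.

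In the membrane-bound and mitochondrial transferases, 5 of 7 genes had a positive log2 fold change and the median was 0.16. Ptges, the prostaglandin E synthase, had 0.18, the mitochondrial Gstk1 0.60 and Mgst3 0.16. Of the genes for synthesis and supply of glutathione, 9 of 15 were positive and the median was 0.00, with -0.22 for the aminopeptidase Anpep, 0.28 for Chac1, which degrades glutathione, and -0.17 for Ggt7. Of the peroxidases and reductases, 8 of 17 were positive and the median was -0.01, with 0.36 for the glutaredoxin Glrx, -0.24 for the peroxidase Gpx1 and 0.14 for the thioredoxin reductase Txnrd1. None of these genes passed the threshold.

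Among transporters that export glutathione conjugates, 1 of 7 genes had a positive log2 fold change and the median was -0.05. Abcc5 had -0.05 and Abcg2 0.26. Of NRF2 pathway genes and other NRF2 targets, 8 of 19 were positive, with a median of -0.01. Srxn1, which repairs oxidized peroxiredoxins, had a log2 fold change of 0.37, the ferritin heavy chain gene Fth1 0.22 and Keap1, the repressor of NRF2, -0.14, each with overlapping groups. Most of these lists were thus spread around 0. No list held a gene with groups that did not overlap in CPM, a pattern that only 1.33% of all genes tested had.

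**Figure D5:**
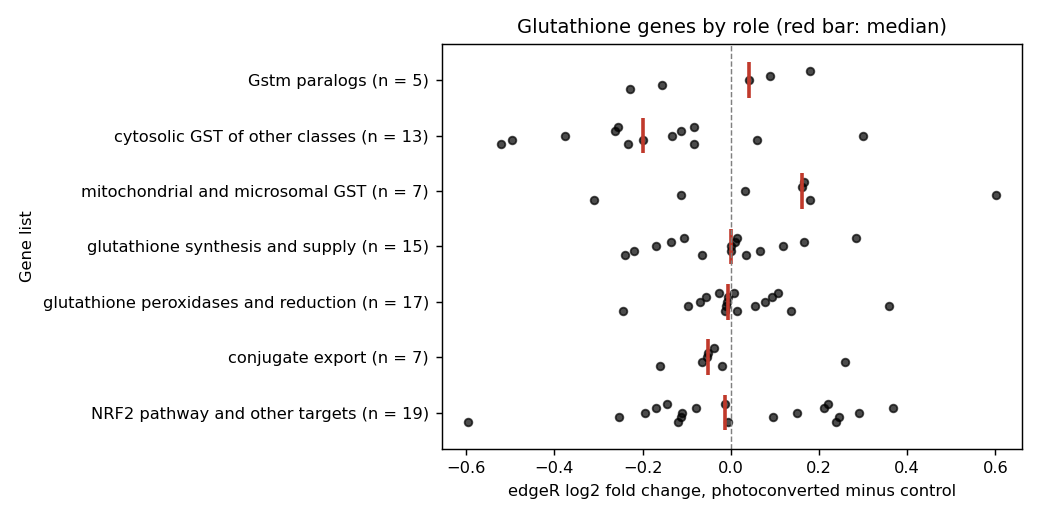
The edgeR log2 fold change (photoconverted minus control) of every tested gene of the Gstm family without Gstm3 and of 6 lists of glutathione genes, 1 point per gene, with red bars at the list medians. All 78 genes of the 6 lists lie between -0.60 and 0.60, and the 5 paralogs lie between -0.23 and 0.18.

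The plot of glutathione genes by role shows that the 5 tested paralogs lay within the range of the other glutathione genes. On the same axis the log2 ratio of Gstm3, -3.49, lies far to the left of every gene shown. The same holds against all 14468 genes tested, whose lowest log2 fold change was -2.61. Gstm3 was chosen for its drop, so nothing particular to glutathione genes is read from this distance.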

How the data were processed

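RNA of 4 photoconverted and 4 control tumors was sequenced as paired reads of 150 bases. The library kit (stranded, total RNA) is SMARTER in the labels and TruSeq in the methods. The authors deposited raw counts by gene symbol. Separately they deposited normalized values (a signal scale), which were the raw counts divided by size factors. The submitters' processing notes list CASAVA, FastQC, Trim Galore, HISAT2, featureCounts, DESeq2 and the mm10 build. Their versions and the settings for strand and for reads with several matches are not given in the sources used here. The members and all gene lists were chosen with earlier results of these data known.

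Raw counts were tested with edgeR 4.0.16 (R 4.3.3, TMM, glmQLFTest), with Benjamini-Hochberg adjustment and a threshold of 0.05, over the 14468 genes kept by filterByExpr, which asked for 0.428 CPM in 4 tumors. Gstm3 and Gstm6 failed this filter. The log2 levels per kilobase used a pseudocount of 0.5 reads. Named were all Gstm genes, the 3 genes with the smallest p of each glutathione list, 3 tested neighbors on each side of the cluster and the 5 genes most correlated with each member (log2 of the normalized value plus 1 for Gstm3, log2 CPM with a prior count of 2 for the others). A few genes that this rule names are not reported here. Coordinates, lengths and coding sequences came from GENCODE (GRCm38), and promoters from RefSeq. Gsta13, Gstp3 and Opla were not matched. On simulated data, of 200 genes among 14468 changed by 2 on the log2 scale, edgeR recovered 180 with 9 false calls. The changed genes were drawn from those above a minimum mean count, so the recovery does not cover the scarcest genes. Apart from the change, each gene had the same mean level in every simulated library. Replicates differed by more than sampling noise (chi-square per degree of freedom at least 23.8). The labels state no pairing. Deviations from the group means correlated in same-numbered pairs with r of 0.597, 0.107, 0.407 and 0.623. Some tumors of unlike number also correlated, such as photoconverted tumor 3 with control tumor 1 (r = 0.482). In others r was negative, down to -0.6 between photoconverted tumor 3 and control tumor 4. The main fit did not use the replicate numbers. Same-numbered tumors were treated as pairs only in the replicate block and in the directions counted within pairs. These correlations do not establish a pairing. Alternatives covered the test (DESeq2 1.42.0, limma 3.58.1), scaling, the filter, Rn45s, the replicate block and leaving out each tumor. Directions within pairs were counted after the values were seen.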

Additional observations from a re-analysis of the deposited data

Results flagged for a closer look

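In control tumor 3 the normalized count of Gstm4 was 13.7, below the other control tumors, the nearest of which had 16.6. In the same tumor the normalized count of Gstm6 was 9.66, above the others, the nearest of which had 4.81, which is a difference between 12 raw counts and 2 raw counts in libraries of unlike depth. Each value was separated from its group by a gap that was large for the group's range. A gap of that kind was sought in 14 sets of 4 tumors and found in 2, against 0.7 by chance.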

How the results depend on the processing

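The count of 0 paralogs and of 0 glutathione genes past the threshold held under every alternative run, including the replicate block and each tumor left out (0 to 0). The count over all genes was 0 in edgeR, 24 with DESeq2's Wald test, 42 in the 5 tumors below 10% Rn45s and 0 to 11 with a tumor left out, with 11 without photoconverted tumor 4. The replicate block treats same-numbered tumors as pairs. With it the count was 0 over all genes (869 with an unadjusted p under 0.05), and no call changed. The log2 ratio of Gstm3 ranged from -4.24, without photoconverted tumor 4, to -3.17, without control tumor 3, and was -4.60 in the 5 tumors. The log2 fold change of Gstm2 was -0.068 with the Rn45s share as a covariate, -0.10 in the 5 tumors, and -0.13 to 0.30 with a tumor left out, negative without photoconverted tumor 1 or 3 or control tumor 2 or 4. With a tumor left out, that of Gstm1 ranged from -0.38 to 0.12 (positive without control tumor 1; -0.52 in the 5 tumors), that of Gstm4 from -0.026 to 0.34 (negative without photoconverted tumor 3 or 4), that of Gstm5 from -0.021 to 0.28 (negative without photoconverted tumor 3) and that of Gstm7 from -0.37 to 0.047 (positive without photoconverted tumor 4 or control tumor 1). The cause of these moves was not tested. The number of neighboring pairs of levels past the threshold was 4, and 3 to 4 with a tumor left out. Depth limits Gstm3, Gstm4, Gstm6 and Gstm7, with at most 47 counts in any tumor.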
